A study of Mus musculus and Homo sapiens with 10 samples.

Results

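The regions described here are those at which the authors called trimethylation of histone H3 on lysine 4 (H3K4me3) lower or higher in MDA-MB-231-Luc cells after knockdown of CBX8. Every region of the 2 deposited human lists was taken apart from 1 on the mitochondrial chromosome, which left 1240 lower and 2611 higher regions. These 3851 regions are part of 4818 in the 8 lists of the whole series. The members were thus chosen by the measured change itself: the authors' calls of lower or higher H3K4me3 in this contrast, at a q-value of 0.002 per the file names. Its direction, length and place in its list are therefore given as description and were not tested.

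The cells are a form of MDA-MB-231, an established line from a human breast cancer of the mesenchymal, triple-negative kind, and the labels do not expand the suffix Luc. Cells of the knockdown group (MDA-MB-231-Luc shCBX8 H3K4me3) carried a lentiviral pLKO.1 hairpin against CBX8, and the labels do not say which hairpin was used. The control group (MDA-MB-231-Luc shScr H3K4me3) carried a scrambled hairpin. An input library came from control cells only (MDA-MB-231-Luc shScr Input). Both hairpin groups went through the same selection with puromycin, and their chromatin was cut to mononucleosomes with micrococcal nuclease before immunoprecipitation. Each of the 3 human groups is 1 library, so no difference has a replicate check. The deposited human lists give positions only, so neither read depth nor the strength of any change is known.

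CBX8 is a chromodomain subunit of Polycomb repressive complex 1 (PRC1), the complex that ubiquitinates histone H2A and binds the H3K27me3 mark laid down by Polycomb repressive complex 2 (PRC2). The title of the series pairs it with WDR5, a core subunit of the methyltransferase complexes that deposit H3K4me3. H3K4me3 is found at the promoters of active genes, and unusually broad domains of the mark are known at genes of cell identity. Weaker and narrower H3K4me3 can also be found at enhancers.

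Gene names below were assigned from general knowledge of hg19 gene positions, and no hg19 annotation or genome was used to check them. A region is said to lie over the start of a gene, over a whole gene, or inside a gene, with no distance computed. A region with no name was not tied to a gene with certainty, which says nothing about what lies there. All coordinates are on hg19, counted from 1.

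The regions called lower tended to be longer than those called higher. Lower regions ranged from 1000 to 21650 bp, with a median of 4400 bp and quartiles of 3350 and 5950 bp (n = 1240). Higher regions ranged from 300 to 20100 bp, with a median of 1750 bp and quartiles of 1150 and 2800 bp (n = 2611). The lengths overlapped widely, but the lower list had the longer median on each of the 23 chromosomes that held regions. By chromosome, the median ran from 3700 to 5800 bp for lower regions and from 1300 to 2125 bp for higher regions. The balance of directions was less even. Lower regions outnumbered higher ones only on chromosomes 14 (89 and 77) and 19 (85 and 64).

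The mixture of directions changed by length class. Below 1 kb there were 406 regions and 0 of them were lower. From 1 to 2 kb, 34 of 1115 regions were lower, or 3.05% (95% Clopper-Pearson interval 2.12 to 4.24%). From 2 to 4 kb, 457 of 1275 were lower, or 35.8% (33.2 to 38.5%). The majority turned in the next class. From 4 to 8 kb, 629 of 900 regions were lower, or 69.9% (66.8 to 72.9%), and from 8 kb upward 120 of 155 were lower, or 77.4% (70.0 to 83.7%). These intervals cover counting error over regions, not the spread between cultures. A smallest allowed length for either list is not stated in the labels.

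**Figure D1:**
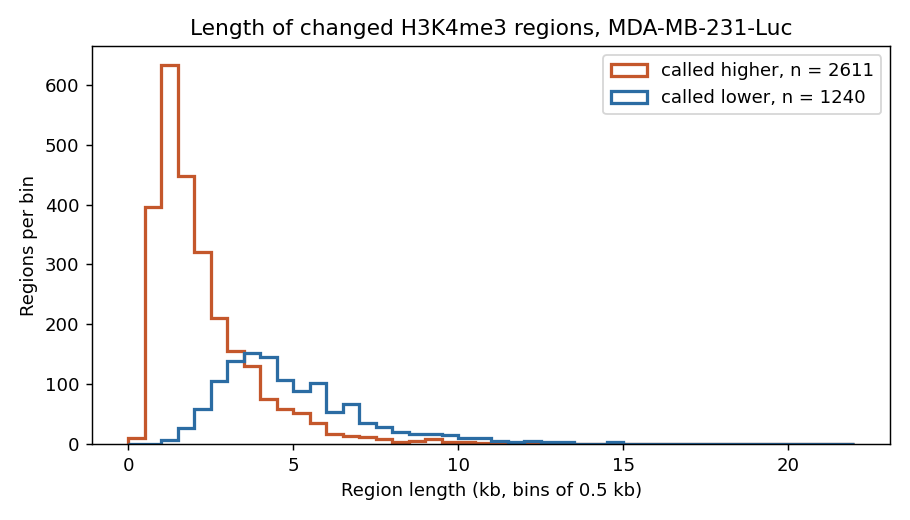
Number of changed H3K4me3 regions per 0.5 kb of region length (x axis, kb) in the lower list (blue, n = 1240) and the higher list (orange, n = 2611). The higher list piles up below 2 kb, and the lower list is spread around its median of 4400 bp with a tail that reaches 21650 bp.

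The 5 longest lower regions were all tied to genes. The longest, 21.65 kb at chr1:94693751-94715400, lay over the start of ARHGAP29, a GTPase-activating protein. The next, 16.35 kb at chr1:156082651-156099000, lay over the start of LMNA, which encodes the nuclear lamins A and C. A region of 15.95 kb at chr11:122037151-122053100 was inside MIR100HG, the host transcript of miR-100, let-7a-2 and miR-125b-1.

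The region next in length touched the Polycomb machinery itself. It spanned 14.85 kb at chr10:22603051-22617900, over the start of BMI1, the PCGF subunit of canonical PRC1, and over its upstream neighbour COMMD3. The nearest region called higher was 370.4 kb away, close to the median of 369.6 kb over all lower regions. Equal next in length were 14.55 kb at chr3:150123301-150137850, over the start of TSC22D2, and 14.55 kb at chr21:36250701-36265250, inside RUNX1. That gene is known to have an internal promoter, but its region was counted as inside the gene and not over a start. RUNX1 encodes a transcription factor of blood and epithelial cells.

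Among the 15 longest lower regions, 13 were tied to a gene, of which 10 lay over a start. The names beyond the first 5 were chosen after their values were seen. SMURF2, a ubiquitin ligase of the TGF-beta pathway, had 14.3 kb over its start at chr17:62647251-62661550. HIF1A, the oxygen-regulated subunit of hypoxia-inducible factor, had 2 of the 15. One of 13.15 kb lay over its start at chr14:62160601-62173750, and one of 13.9 kb lay over its far end at chr14:62208501-62222400, with 34.75 kb between them. ETV1, an ETS transcription factor, had 13.45 kb over its start at chr7:14019051-14032500. NRP1, a co-receptor for semaphorins and VEGF, had 13.3 kb at chr10:33613851-33627150. ERRFI1, an inhibitor of the EGF receptor, had 12.7 kb at chr1:8077051-8089750, and BPGM, an enzyme of red cell glycolysis, had 12.55 kb at chr7:134327451-134340000. A region of 13.35 kb at chr10:42384151-42397500 lay beside the centromere of chromosome 10, and how reads were placed there was not tested.

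Long regions were also called higher, though only 35 of 2611 reached 8 kb, against 120 of 1240 lower regions. The longest, 20.1 kb at chr8:145008201-145028300, was inside PLEC, which encodes the cytoskeletal linker plectin and has several alternative promoters. NR2F2, an orphan nuclear receptor, was covered whole by 16.4 kb at chr15:96867401-96883800. MIRLET7BHG, the host transcript of let-7a-3 and let-7b, held 12.8 kb at chr22:46460351-46473150. Regions of 13.0 kb at chr10:4802051-4815050 and 12.9 kb at chr8:77314151-77327050 were also among the 5 longest and were not tied to a gene.

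Of the 15 longest higher regions, 10 were tied to a gene, of which 7 lay over a start or a whole gene. Those beyond the first 5 were again named after their values were seen. IRF2BP2, a transcriptional co-repressor, was covered whole by 12.4 kb at chr1:234738001-234750400. ANXA2, a calcium-dependent membrane-binding annexin, had 10.65 kb over its start at chr15:60681951-60692600. NNMT, which methylates nicotinamide, had 10.0 kb at chr11:114165251-114175250. AJUBA, a LIM-domain protein of cell adhesions, had 9.9 kb at chr14:23444101-23454000. ZMYND8, a reader of acetylated histones, had 10.4 kb over its start at chr20:45979851-45990250. Its gene body held another higher region, of 4.85 kb at chr20:45943801-45948650. CDCA4 had 10.65 kb over its start at chr14:105484201-105494850, and TRIO, a guanine nucleotide exchange factor, held 10.4 kb inside the gene at chr5:14261751-14272150.

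The lists are not sorted by position, and their order is not explained in the labels. Longer regions were more common near the top. The first 124 lines of the lower list had a median of 6700 bp and the last 124 a median of 3850 bp. The first 262 lines of the higher list had a median of 2600 bp and the last 261 a median of 1650 bp. Across regions, Spearman's rank correlation of line number with length was -0.34 in the lower list (n = 1240) and -0.17 in the higher list (n = 2611). Neighbouring regions are not independent, and no p is given for these. Lower regions had the larger median at every step of the order that was compared.

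**Figure D2:**
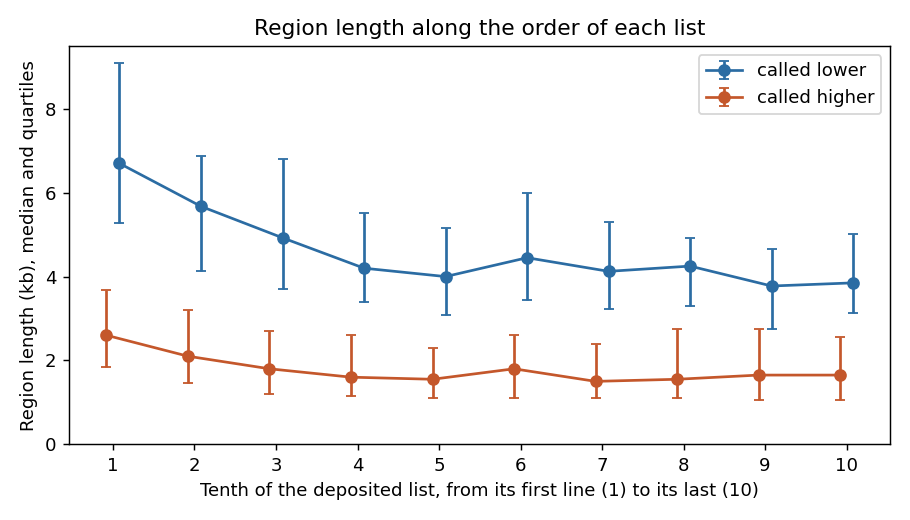
Median region length (y axis, kb, with quartiles as bars) in 10 successive parts of the deposited lower list (blue) and higher list (orange), from the first lines to the last (x axis). Both medians are largest in the first part, at 6700 and 2600 bp, and the lower list stays above the higher list throughout.

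The first 5 lower regions are given in the order of the list. The first, 10 kb at chr1:144923751-144933750, was inside PDE4DIP, a gene known to have close copies elsewhere on chromosome 1. Those on lines 2 and 3, of 11.1 kb at chr9:66690151-66701250 and 10.4 kb at chr9:69873601-69884000, lay around the centromere of chromosome 9, a part of the genome known for duplicated sequence. How reads were placed at these 3 regions was not tested. The next lay inside FSIP2, a sperm sheath gene, at chr2:186611101-186615450 (4.35 kb). The last of the 5, at chr12:74987701-74993000 (5300 bp), was not tied to a gene. Further down the first 15, named after their values were seen, came HIF1A, HMGA2 (11.75 kb at chr12:66214601-66226350), LTBP1, ARSJ (7.55 kb at chr4:114894951-114902500) and ETV1. HMGA2 is an architectural chromatin protein of fetal and tumour cells.

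Of the first 5 higher regions, 3 were tied to a gene and each lay inside it. The first, 2.05 kb at chr15:79294751-79296800, was inside RASGRF1, a Ras exchange factor. The third, 4.55 kb at chr6:136357801-136362350, was inside PDE7B, a cyclic AMP phosphodiesterase, and the fifth was the region in the body of ZMYND8 given above. The region on line 2, at chr1:162823301-162826500 (3200 bp), was not tied to a gene. That on line 4, of 9400 bp at chr1:94787551-94796950, lay 72.15 kb from the long lower region at ARHGAP29.

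The 5 shortest lower regions measured 1000 to 1350 bp and were not tied to genes. They lay at chr12:15063001-15064000, chr12:110868901-110870050, chr11:122699851-122701000, chr7:121924601-121925800 and chr20:44002051-44003400. Even the shortest of them was longer than 406 of the 2611 higher regions.

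Genes of 11 lists, chosen with earlier results of these data known, were then looked up (Polycomb and H3K4 enzymes, Notch, HOX, immediate early, cell cycle and markers). Of their 164 genes, 21 were tied to a changed region, through 28 regions. The lists hold changed regions only, so the share of all promoters called changed is unknown and these counts cannot be read against a background. The 14 lower regions among them all lay over a gene's start or a whole gene, with a median of 6425 bp. Of the 14 higher regions, 4 lay over a start and 10 inside a gene, the latter with a median of 2275 bp. The ties followed no computed distance, and longer regions reach a start more easily. Lower regions are the longer ones over the whole lists, with medians of 4400 and 1750 bp, so this contrast was not tested.

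Of 20 genes for PRC1 subunits, BMI1 was tied to a lower region and BCOR to higher ones. BCOR, a scaffold of a variant PRC1, had 3 higher regions. One of 3.55 kb lay over its start at chrX:40033301-40036850, another of 1.3 kb lay 1.35 kb away at chrX:40030651-40031950, and one of 3.3 kb lay inside the gene at chrX:39963301-39966600. No changed region was tied to CBX8 itself, the target of the hairpin. H3K4me3 at a promoter does not report on a knockdown by RNA interference, so the lists hold no check of the knockdown.

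Of 11 genes for PRC2 and its partners, 3 were tied. JARID2, which helps recruit PRC2, had a lower region of 7.0 kb over its start at chr6:15243451-15250450. AEBP2, another PRC2 cofactor, had a lower region of 3.8 kb at chr12:19592101-19595900. PHF19, a Polycomb-like reader, had a higher region of 3.1 kb over its start at chr9:123637301-123640400. The catalytic subunits EZH1 and EZH2 were not tied to a changed region.

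Of 17 genes for the H3K4 methyltransferase complexes, 1 was tied. RBBP5, a core subunit beside WDR5, had a lower region of 2.95 kb over its start at chr1:205089451-205092400. WDR5 was not tied, and 0 of the 6 genes for H3K4 demethylases were. A gene not tied here is not shown to be unchanged. It may have missed the authors' threshold, or a changed region at it may have been left untied.

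Of 21 Notch genes, 4 were tied, each to a lower region over its start. Over all the genes looked up, 14 lower and 4 higher regions lay over a start or a whole gene. The 14 include these 4 and the 5 at immediate early genes, so they give no separate background. The receptor NOTCH3 had 1.6 kb at chr19:15310951-15312550, among the shortest of the lower list. The ligand JAG1 had 6.65 kb at chr20:10650001-10656650. MAML2 and MAML3, co-activators that the Notch intracellular domain recruits, had 6.2 kb at chr11:96070751-96076950 and 5.4 kb at chr4:141070851-141076250.

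Both MAML genes also held higher regions inside the gene. MAML2 had 2, of 2.8 kb at chr11:95975851-95978650 and 2.05 kb at chr11:96039301-96041350, the closer of them 29.4 kb from the lower region. MAML3 had 2, of 1.65 kb at chr4:141001401-141003050 and 2.5 kb at chr4:141012301-141014800, the closer 56.05 kb from the lower region. In each gene the lower region was longer than the higher ones.

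Of 17 immediate early genes, which growth factors and stress induce within minutes, 5 were tied and each to a lower region. Start ties over all the genes looked up numbered 14 lower and 4 higher. The 14 include these 5 and the 4 at Notch genes, so they give no separate background. MYC, the oncogenic transcription factor, lay wholly within 11.2 kb at chr8:128745451-128756650. KLF6, a zinc finger transcription factor, lay wholly within 12.3 kb at chr10:3817351-3829650. IER2 lay wholly within 9.0 kb at chr19:13258001-13267000. FOSB, a partner of JUN proteins, had 4.1 kb over its start at chr19:45969651-45973750, and EGR2 had 2.4 kb at chr10:64575801-64578200. The nearest higher region was 5.35 kb away at IER2, 11.6 kb at KLF6, 64.35 kb at MYC, 178.35 kb at EGR2 and 722.25 kb at FOSB. The other 12, FOS, JUN and EGR1 among them, were not tied.

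Of 16 cell cycle genes, 2 were tied. E2F2, which drives genes of DNA replication, had a higher region of 3.65 kb over its start at chr1:23854651-23858300. CDK6, a kinase of the G1 phase, held higher regions of 2.55 kb at chr7:92324051-92326600 and 3.3 kb at chr7:92373901-92377200, both inside the gene. Of the 39 HOX genes 0 were tied, but a lower region of 1550 bp at chr17:46695901-46697450 lay in the HOXB cluster between HOXB8 and HOXB9.

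The markers of the line could be read for change only, since the lists carry no level. Of 7 markers of mesenchymal breast cancer cells, the hyaluronan receptor CD44 had a lower region of 9.15 kb over its start at chr11:35158701-35167850. The caveolar protein CAV1 had a higher region of 7.55 kb over its start at chr7:116163951-116171500, and LOXL2 held a higher region of 1.0 kb inside the gene at chr8:23201501-23202500. Of 7 luminal markers, GATA3 held a higher region of 1.65 kb inside the gene at chr10:8111451-8113100. Of 3 immune markers 0 were tied. The label of the cell line could therefore not be checked from these files.

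Most changed regions stood alone. Of 3851 regions, 3385 (87.9%) had no other changed region within 20 kb. The rest formed 217 groups, of which 36 held lower regions only, 130 higher only and 51 both. The median gap between neighbours was 249 kb where both were lower (n = 565), 365 kb where both were higher (n = 1927) and 444 kb where they differed (n = 1336). The longest row of higher regions held 23, over 20.8 Mb of chromosome 11 (75272351 to 96041350). The longest row of lower regions held 16, over 0.619 Mb of chromosome 6 (27143901 to 27762900), a far denser row.

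Directions seldom met closely. No pair of opposite regions lay within 1 kb, whereas 2 pairs of lower and 9 pairs of higher regions did. Within 5 kb there were 68 neighbouring pairs, of which 8 (11.8%) were of opposite direction, and over all distances 1336 of 3828 (34.9%) were. How the caller split or joined nearby signal of the same direction is not known, and these shares were not tested. Lower regions within 20 kb of a higher one numbered 52 (4.19%), with a median length of 6200 bp. The 1188 others had a median of 4400 bp. Higher regions within 20 kb of a lower one numbered 53 (2.03%), with a median of 2300 bp, against 1750 bp for the other 2558.

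The 8 close opposite pairs, named after their values were seen, showed a long lower region beside a shorter higher one in 7 cases. At ACTN4, which encodes the actin cross-linker alpha-actinin-4, 7.8 kb over the start was lower (chr19:39137701-39145500). Downstream by 1600 bp, 3.2 kb inside the gene was higher (chr19:39147101-39150300). At KHDRBS3, an RNA-binding protein, 4.55 kb over the start was lower (chr8:136468751-136473300) and 2.65 kb inside the gene was higher (chr8:136477551-136480200). At TFAP2B, a transcription factor of the neural crest, 3.3 kb just before the start was lower (chr6:50783001-50786300) and 2.05 kb inside the gene was higher (chr6:50788201-50790250).

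PPP1R15B, a phosphatase subunit that acts on the translation factor eIF2-alpha, had 7.15 kb lower over its start at chr1:204374451-204381600, with 650 bp higher at chr1:204386451-204387100. The lower region in PDE4DIP had a higher one of 5300 bp at chr1:144914851-144920150. The exception in length was CDCA4, whose start was called higher over 10.65 kb while 4000 bp at chr14:105498601-105502600 was lower.

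In 2 places a lower region had higher regions on both sides within 20 kb, and the reverse arrangement was not found at that distance. At KLF6 the flanking regions measured 1400 bp at chr10:3804351-3805750 and 3150 bp at chr10:3846651-3849800, with gaps of 11600 and 17000 bp to the 12.3 kb lower region. LTBP1, a binding protein of latent TGF-beta, held a lower region of 4.75 kb at chr2:33358501-33363250. Higher regions of 550 bp (chr2:33355401-33355950) and 750 bp (chr2:33383251-33384000) lay 2550 and 20000 bp away. Within 50 kb, 6 lower regions were flanked in this way and 4 higher regions in the reverse way.

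Further flanked lower regions lay at named genes. A region of 12.05 kb at chr17:57913301-57925350 covered MIR21, the microRNA gene at the end of VMP1. MCTP2 had 5000 bp over its start at chr15:94772851-94777850, and HLA-E, a non-classical MHC class I gene, had 3100 bp at chr6:30456751-30459850. Among the higher regions flanked by lower ones was that over the start of AJUBA.

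**Figure D3:**
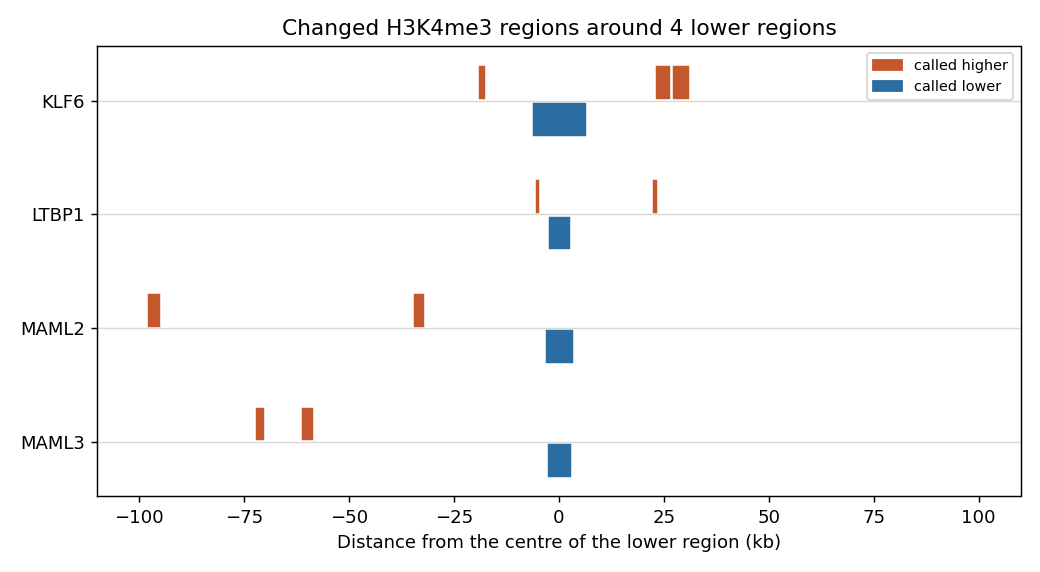
Changed H3K4me3 regions around the lower regions of KLF6, LTBP1, MAML2 and MAML3, drawn to scale by distance from the centre of each lower region (x axis, kb), with higher regions (orange) above the line and lower regions (blue) below it. The lower region of KLF6 measures 12.3 kb and has higher regions on both sides, and those of MAML2 and MAML3 have higher regions on one side only.

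The KLF6 region stood in the densest field of higher regions. From 2 to 5 Mb of chromosome 10 there were 24 changed regions, 22 higher and 2 lower, with close neighbours counted singly. Over the whole lists 2611 of 3851 regions were higher, and 159 of the 218 on chromosome 10 were. The higher regions from 2 to 5 Mb measured 600 to 13000 bp, with a median of 2325 bp. The window from 3 to 4 Mb held 10 higher regions and 1 lower, that of KLF6, and the window from 2 to 3 Mb held 8 higher and 0 lower. No other 1 Mb window held as many higher regions as the former. Chromosome 14 from 50 to 51 Mb, with 7 lower and 4 higher regions, held as many changed regions in all. After these came chromosome 19 between 49 and 50 Mb, with 7 regions lower and 2 higher.

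The densest field of lower regions was the part of chromosome 6 from 26 to 29 Mb, which holds the major histone gene cluster, many transfer RNA genes and a group of zinc finger genes. There 42 regions were lower and 8 higher, in alternating blocks, while over the whole lists 32.2% were lower. From 26309901 to 26570400 came 7 lower regions, and from 26986201 to 27116650 came 3 higher ones. The row of 16 lower regions followed, then 4 higher from 27774101 to 27808850. After these came 9 lower regions, 1 higher and 10 lower, up to 28954600.

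Of the 8 higher regions in this window, 6 were tied to a gene, in each case a histone gene. Of the 42 lower regions only 4 were tied to any gene, so what lies at the other 38 is not known here and the directions cannot be compared by gene. The gene names in the window were chosen after the values were seen. The region over HIST1H2AG, a histone H2A gene, measured 5.4 kb (chr6:27097551-27102950), and that over the start of HIST1H2BK, a histone H2B gene, 6.0 kb (chr6:27110651-27116650). The block of 4 lay over HIST1H3H (8.95 kb at chr6:27774101-27783050), HIST1H4J (4.0 kb at chr6:27789951-27793950), HIST1H4K (2.45 kb at chr6:27797401-27799850) and the start of HIST1H2BN (5.95 kb at chr6:27802901-27808850). Copies of histone genes are known to be nearly identical in sequence, and how reads within them were placed was not tested.

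Of the 4 lower regions tied to a gene, 3 lay over its start. ZNF184 had 9.05 kb at chr6:27434051-27443100, the longest lower region of its block. ZNF165 had 5.35 kb at chr6:28046501-28051850, and ZKSCAN8 had 3.45 kb at chr6:28108851-28112300. These 3 encode zinc finger proteins. PRSS16, a serine protease of the thymus, had 2.8 kb at chr6:27217651-27220450, and whether that region reaches the start was not checked. The other lower regions of the window measured from 1650 to 7800 bp.

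**Figure D4:**
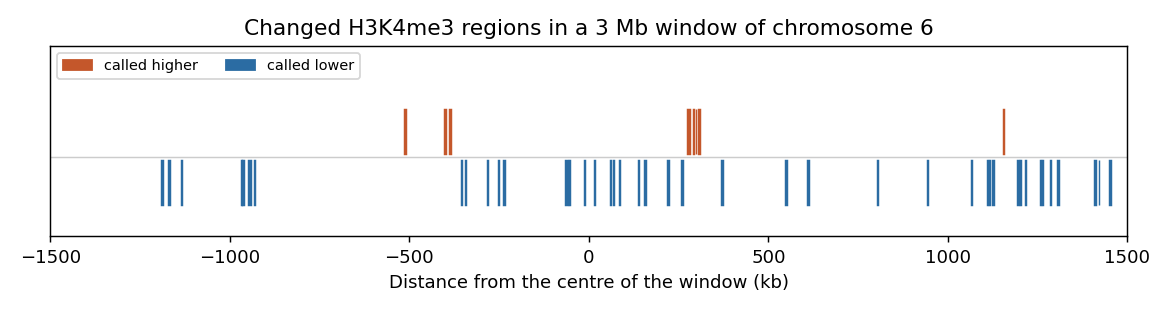
Changed H3K4me3 regions on chromosome 6 from 26 to 29 Mb, drawn to scale by distance from the centre of the window (x axis, kb), with 8 higher regions (orange) above the line and 42 lower regions (blue) below it. The higher regions gather in a block of 3 and a block of 4 that interrupt the lower ones.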

How the data were processed

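Immunoprecipitated mononucleosome DNA, 1 library per condition, was sequenced as single-end 100 bp reads, per the labels' protocols. The submitters' processing notes name SICER, MACS2 2.1.0, Bowtie 1.0.0 and FastQC 0.10.0, with hg19 as the human build. The tool that called the changed regions, its scaling and its use of the input are not given in the sources used here. The file names carry a q-value of 0.002 and no fold. The deposited human lists hold 3 columns (chromosome, start, end). Starts and ends lay on a grid of 50 bp once 1 bp was added to each end, so ends were read as included. Overlapping neighbours numbered 0.

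Lengths, gaps between neighbouring regions and counts per window were computed with Python 3.11.15, numpy 2.4.6, pandas 2.3.3 and scipy 1.17.1, figures with matplotlib 3.10.9. Gap counting and merging were tested on simulated data. With 1 library per condition there was no test. Named were the first 5, the 5 longest and (lower list) the 5 shortest regions, the densest windows and list genes tied to a region. The members and lists were chosen with earlier results of these data known. Gene ties rest on general knowledge of hg19. Planned counts at transcription start sites, and of GC content, need an hg19 annotation or genome and were not run. A pair of regions at a named gene is not reported here.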

Additional observations from a re-analysis of the deposited data

Results flagged for a closer look

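The lower list also held a region on the mitochondrial chromosome, 16500 bp long (51 to 16550) and on line 6 of the list, which was left out of every value above. It stands out because mitochondrial DNA carries no histones, and what gave rise to the call was not tested. No control library's value for it is in the lists.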

How the results depend on the processing

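Of 11 alternative values over 4 results, 6 stayed within the interval used to judge them and 5 moved. Several of these outcomes were fixed by construction, so the tally does not measure robustness. The lower share of 32.2% was 51.1% when base pairs were counted and 58.8% when only regions not shorter than the overall median were kept, since both settings favour long regions by construction. It was 32.4% with close regions merged, 32.4% on autosomes only and, as chosen after seeing the data, 31.5% without chromosome 6 from 26 to 29 Mb. The median higher region went from 1750 to 2000 bp when regions of at least 1000 bp were kept, a setting that cannot lower a median. The lower median of 4400 bp could not move under it, since the shortest lower region measured 1000 bp. Lower regions with a higher region close by numbered 8 within 5000 bp, 0 within 1000 bp and 52 within 20000 bp. That count cannot fall as the distance grows. No paired analysis was possible because each group has 1 library. Alternatives at start sites and of GC content were not run. Depth is unknown, so how far it limits the calls cannot be given.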
